A study of Glycine max with 10 samples.

Results

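Seeds of soybean (Glycine max) store several abundant proteins besides the globulins, and 5 of their genes, out of 56044 in the count table, were followed here across pods of 10 soybeans. The genes are the lipoxygenase genes Lx1 (Glyma.13G347600.Wm82.a2.v1), Lx2 (Glyma.13G347500.Wm82.a2.v1) and Lx3 (Glyma.15G026300.Wm82.a2.v1), the lectin gene Le1 (Glyma.02G012600.Wm82.a2.v1) and the trypsin inhibitor gene KTI3 (Glyma.08G341500.Wm82.a2.v1). They were chosen by name, and 5 of 5 names were found as symbols or synonyms in the RefSeq gene table of assembly Glycine_max_v4.0, which lists Lx1 as LOX1.1, Lx2 as LOX2 and Lx3 as LOX3. It places Lx1 and Lx2 on chromosome 13, Lx3 on chromosome 15, Le1 on chromosome 2 and KTI3 on chromosome 8, as the IDs do.

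Lipoxygenases add oxygen to linoleic and linolenic acid, and the seed enzymes encoded by Lx1, Lx2 and Lx3 are known for the beany flavour of soy products. Le1 encodes soybean agglutinin, a lectin that binds N-acetylgalactosamine and is stored in the protein bodies of the cotyledons. KTI3 encodes the main Kunitz trypsin inhibitor of the seed, a protein that lowers the feed value of unheated soybean meal. All of them are made in the embryo during seed filling, together with the globulins.

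The pods came from field-grown plants, 18 days after flowering, and total RNA was sequenced as paired-end TruSeq libraries. The labels give 5 soybeans with high pod shattering force (015, 018, 044, 060 and 071, high force here) and 5 with low pod shattering force (038, 055, 072, 092 and 109, low force here), for a comparison of pod dehiscence. They give no genotype or treatment, and leave unsaid whether each numbered soybean was sampled as an individual or pooled and whether seeds were left in the pods. The p-values therefore speak of the spread among these libraries, which may be partly technical.

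Library totals ran from 3779756 to 13298201 counts. Levels are given as CPM, counts scaled to a common library size after TMM normalisation (trimmed mean of M-values). Where a library had no read of a gene, up to 3 counts remain possible, a level of 0.149 CPM in high force 044, the deepest library, and of 3.26 CPM in low force 055. Low force 055 stood apart: TMM set its size at 921615, against a total of 6528403 counts, and it had reads of 30465 genes, against 37611 to 41462 in the other 9 libraries. Its limits and levels hang on that factor, and with totals alone its limit was 0.460 CPM. These limits are one-sided 95% bounds, while the intervals on counts are two-sided 95% intervals, and both cover counting error only. The two-sided upper end for 0 counts was higher, 0.184 CPM in high force 044 and 4.0 CPM in low force 055. The pod wall genes SHAT1-5 (Glyma.16G019400) and NST1A (Glyma.07G050600), NAC factors of secondary walls, were read in all 10 libraries. SHAT1-5 lay at 24.6 CPM in low force 109 and between 17.4 and 30.8 CPM in the other 9, and NST1A at 41.6 CPM in low force 109 and between 25.4 and 44.9 CPM in the other 9.

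The 5 genes were abundant in low force 109 and at trace level in every other library. Together they took 17384 counts in low force 109, or 0.220% of that library, a summed level of 1751 CPM. The summed level in the other 9 libraries ran from 0.448 CPM in high force 044 (9 counts) to 23.5 CPM in high force 060 (125 counts). Whether seeds were in the pods is not given, and fewer cells that make these transcripts and less RNA per cell cannot be told apart. The values that follow are a description of low force 109, with no test, because 1 library has no replicate and was already known to be high in seed genes.

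**Figure D1:**
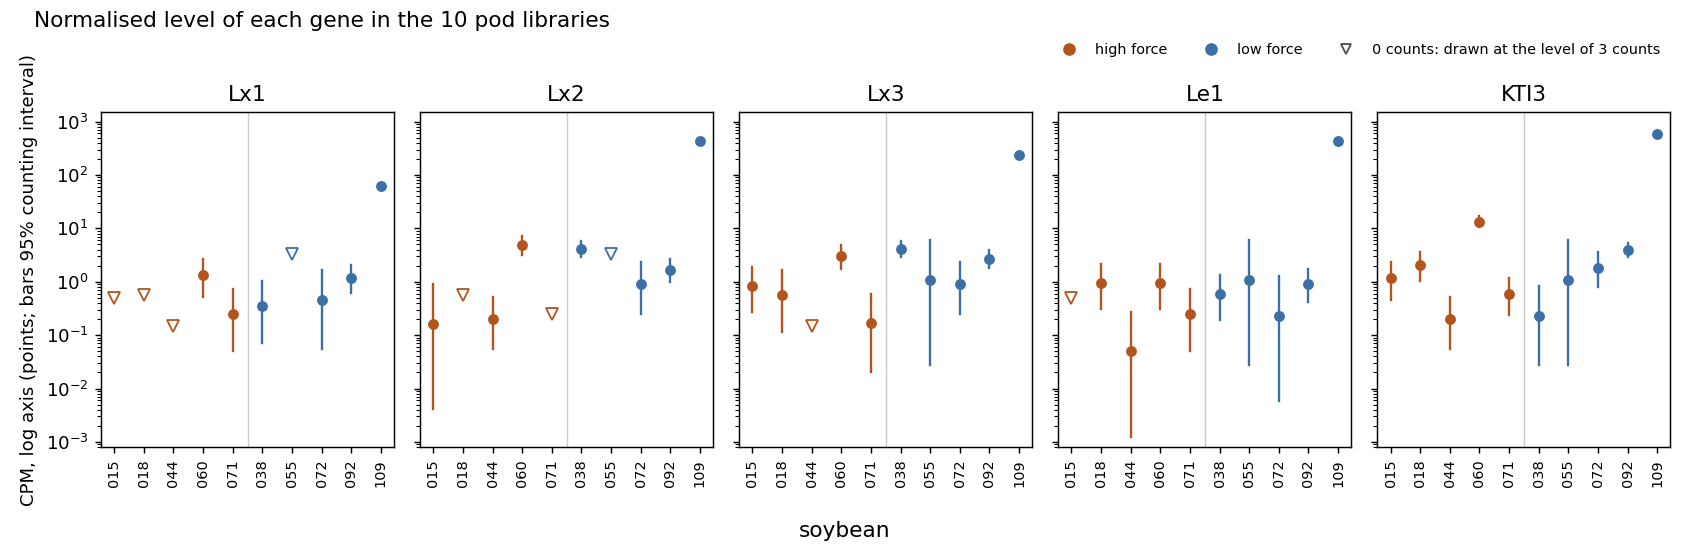
Normalised level (CPM, log axis) of Lx1, Lx2, Lx3, Le1 and KTI3 in each of the 10 libraries, high force left and low force right, with 95% counting intervals. Open triangles mark libraries with 0 counts, drawn at the level of 3 counts, and low force 109 stands above every other library in each panel, between 61.0 CPM for Lx1 and 594.1 CPM for KTI3.

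Lx2, the gene of lipoxygenase L-2, had the most counts of the lipoxygenase genes. It had 1, 0, 4, 26 and 0 counts in high force 015, 018, 044, 060 and 071, against 36, 0, 4, 17 and 4220 counts in low force 038, 055, 072, 092 and 109. Its level in low force 109 was 425.1 CPM (412.4 to 438.2), against 4.88 CPM (3.19 to 7.15) in high force 060 and 4.18 CPM (2.93 to 5.79) in low force 038, the next 2 libraries. High force 060 and low force 038 did not differ beyond their counting intervals, and both stood above the other libraries that had a count. The level in low force 109 was 87.1-fold (59.3 to 133.5) that in high force 060.

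Lx3, the gene of lipoxygenase L-3 on another chromosome, showed the same library on top. It had 5, 3, 0, 16 and 2 counts in high force 015, 018, 044, 060 and 071, against 36, 1, 4, 27 and 2317 counts in low force 038, 055, 072, 092 and 109. Low force 109 lay at 233.4 CPM (224.0 to 243.1). Low force 038, at 4.18 CPM, was the next library, 55.9-fold lower (40.2 to 79.95). High force 060 (3.0 CPM) and low force 092 (2.69 CPM) followed, and no 2 libraries next to each other in the order below low force 109 had separate intervals.

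Lx1, the gene of lipoxygenase L-1, gave the fewest counts. It had 0, 0, 0, 7 and 3 counts in high force 015, 018, 044, 060 and 071, against 3, 0, 2, 12 and 606 counts in low force 038, 055, 072, 092 and 109. The level in low force 109 was 61.05 CPM (56.3 to 66.1), 46.4-fold (22.4 to 116.0) that of high force 060 (1.31 CPM) and 50.98-fold (29.0 to 99.2) that of low force 092 (1.20 CPM). With 0 counts, low force 055 cannot be placed below high force 060, and low force 109 was at least 18.8-fold higher than it, or at least 169.2-fold with totals alone. In high force 044, where 3 counts would be 0.149 CPM, Lx1 was at least 409.0-fold lower than in low force 109.

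Le1, the lectin gene, had 30 counts in the 9 libraries other than low force 109 together. It had 0, 5, 1, 5 and 3 counts in high force 015, 018, 044, 060 and 071, against 5, 1, 1, 9 and 4344 counts in low force 038, 055, 072, 092 and 109. Low force 109 lay at 437.6 CPM (424.7 to 450.8). Among libraries with more than 3 counts it was 466.1-fold (199.6 to 1436) above high force 060, 467.2-fold above high force 018, 487.2-fold above low force 092 and 754.0-fold above low force 038. Low force 055 had the next highest level, 1.09 CPM, on a single count, which gives a ratio of 403.3 with an interval of 72.3 to 15934. With totals alone that count is 0.153 CPM.

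KTI3 had the most counts of the 5 in low force 109 and was the only one read in all 10 libraries. It had 7, 11, 4, 71 and 7 counts in high force 015, 018, 044, 060 and 071, against 2, 1, 8, 40 and 5897 counts in low force 038, 055, 072, 092 and 109. Low force 109 lay at 594.1 CPM (579.0 to 609.4), against 13.3 CPM (10.4 to 16.8) in high force 060 and 3.99 CPM (2.85 to 5.44) in low force 092. High force 060 stood apart from low force 092 and from all libraries under it. The fold of low force 109 was 44.6 (35.3 to 57.1) over high force 060 and 148.8 over low force 092, so the first value rests on high force 060.

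**Figure D2:**
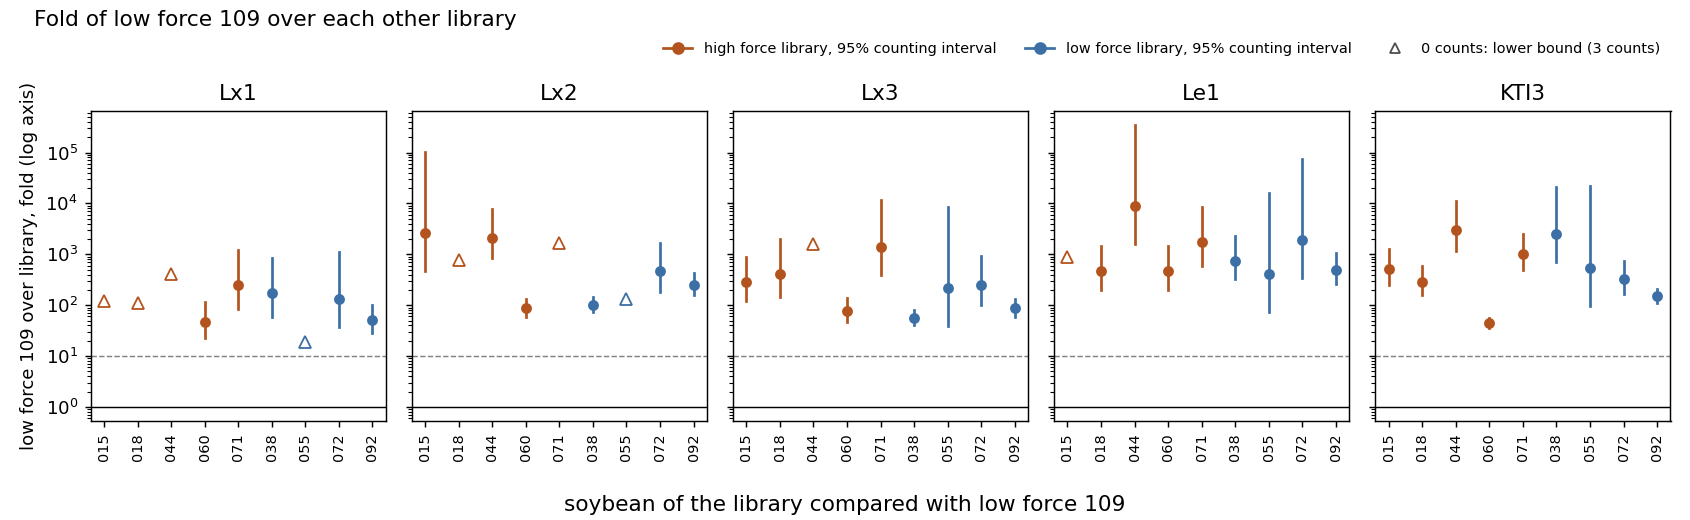
Fold of low force 109 over each other library (log axis) for the 5 genes, with 95% counting intervals and a dashed line at 10-fold. Open triangles are lower bounds for libraries with 0 counts, the lowest of which is 18.8-fold (Lx1 over low force 055), while the lowest fold over a library with counts is 44.6 (KTI3 over high force 060).

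A level in low force 109 at least 10-fold above every other library, with other libraries taken at no less than 3 counts, was met by 5 of the 5 genes. Of the 5099 genes in the table with enough reads in low force 109 to meet it, 0.843% (43) did. Without low force 055, whose limit of 3 counts is the highest, it was 0.494% (92 of 18621 genes), and 5 of the 5 genes met it too. Since these genes were picked as seed genes with low force 109 known to be high, that count describes them and is no test. At 20-fold, 4 of the 5 had enough reads and 4 met it, beside 1.20% of 1920 genes, and Lx1 was the one with too few.

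Within low force 109 the genes took unequal shares of their 17384 counts. KTI3 took 33.9% (exact binomial interval 33.2 to 34.6), Le1 25.0% (24.3 to 25.6), Lx2 24.3% (23.6 to 24.9), Lx3 13.3% (12.8 to 13.8) and Lx1 3.49% (3.22 to 3.77). Counts are not corrected for gene length, which was not used here, so these shares do not order the genes by transcript number. Among the lipoxygenase genes, Lx2 had 6.96 times (6.39 to 7.60) the counts of Lx1 and 1.82 times (1.73 to 1.92) those of Lx3. Le1 and Lx2 differed by less than counting error, with a ratio of 1.03 (0.986 to 1.07).

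The make-up of the counts differed in part between low force 109 and the 3 other libraries with over 80 counts of these genes. Only for Le1 did the intervals of all 3 leave out the value of low force 109. For Lx1, Lx2 and Lx3 the intervals of high force 060 held it, as did that of low force 092 for KTI3. KTI3 took 33.9% in low force 109, against 56.8% (47.6 to 65.6) in high force 060, 38.1% (28.8 to 48.1) in low force 092 and 2.44% (0.297 to 8.53) in low force 038. Le1 took 25.0% in low force 109, against 4.0% (1.31 to 9.09) in high force 060, 8.57% (3.99 to 15.6) in low force 092 and 6.10% (2.01 to 13.7) in low force 038. In low force 038 the counts were thus nearly all of Lx2 and Lx3, at 43.9% each, with 2 counts of KTI3. These intervals cover counting error within a library and say nothing of the spread between soybeans.

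Ratios among the lipoxygenase genes differed in part. Lx2 to Lx3 stood at 1.82 in low force 109, against 1.63 (0.839 to 3.24) in high force 060, 1.0 (0.612 to 1.63) in low force 038 and 0.630 (0.322 to 1.20) in low force 092. The interval of high force 060 holds the value of low force 109, and those of low force 038 and 092 do not. Lx2 to Lx1 was 6.96 in low force 109, against 3.71 (1.57 to 10.1) in high force 060, 12.0 (3.79 to 60.9) in low force 038 and 1.42 (0.638 to 3.25) in low force 092, and the interval of low force 092 alone does not hold 6.96. Lx3 to Lx1 was 3.82 in low force 109, against 2.29 (0.890 to 6.57) in high force 060, 12.0 (3.79 to 60.9) in low force 038 and 2.25 (1.10 to 4.88) in low force 092, and all 3 intervals hold 3.82.

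**Figure D3:**
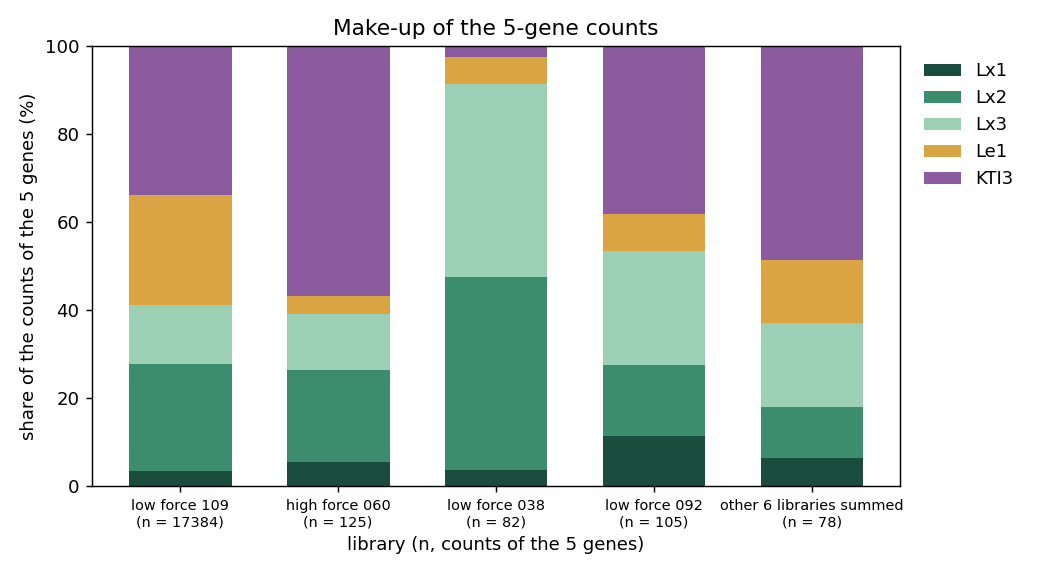
Share (%) of each gene in the summed counts of Lx1, Lx2, Lx3, Le1 and KTI3, for low force 109, the 3 other libraries with over 80 such counts, and the remaining 6 libraries summed (78 counts). KTI3 takes 33.9% in low force 109, 56.8% in high force 060 and 2.44% in low force 038, and Le1 is at 25.0% in low force 109 and under 15% in the other bars.

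The globulin genes Gy1, Gy3, Gy4, Gy5 and CG-alpha-prime, whose IDs were paired with names from published work, also peaked in low force 109. Their summed level in other libraries, as a percentage of that in low force 109, was 1.05% in high force 060, 0.525% in low force 092 and 0.191% in low force 038. The 3 lipoxygenase genes summed were at 1.28% in high force 060, 0.777% in low force 092 and 1.21% in low force 038. By these sums, low force 038 was closer to high force 060 for the lipoxygenase genes than for the globulin genes, a difference that was not tested. Not every gene followed the sums. Lx1 lay at 0.348 CPM in low force 038 and 1.31 CPM in high force 060, and CG-alpha-prime at 18.9 and 43.0 CPM.

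Across the 10 libraries, the log2 CPM of 22186 genes with at least 10 CPM in any library was compared with the mean log2 CPM of the 5 genes. The highest Pearson correlations belonged to Glyma.10G155300 (r = 0.981; 33.4 CPM in low force 109 and at most 0.751 CPM elsewhere) and to Gy4 (r = 0.971). That order depends on the settings: with a prior count of 0.5 CG-alpha-prime came first (r = 0.961) and Glyma.10G155300 was the fourth, and against the lipoxygenase genes alone Gy4 had rank 10. The oil gene FAD2-1B (Glyma.20G111000), a fatty acid desaturase gene whose product makes the linoleic acid that lipoxygenases use, had r = 0.958, Gy1 (Glyma.03G163500) r = 0.931 and the sugar transporter gene SWEET10b (Glyma.08G183500) r = 0.826. These values are a description over 10 points of which low force 109 is far from the others, and that library sets most of each correlation. Glyma.10G155300, FAD2-1B and SWEET10b passed the limit of 10 CPM only through low force 109, so a high r was in part fixed beforehand.

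Gene copies next to these genes bear on whether reads were split between them. Lx2 and Lx1 have consecutive IDs, and the RefSeq table lists LOXB1 and LOX7, further lipoxygenase genes, right after Lx1, and VLXB near Lx3. The files do not say which ID holds which of them. The 2 IDs after Lx1, Glyma.13G347700 and Glyma.13G347800, were among the abundant genes of every library, at 2753 and 2615 CPM in low force 109. In the other 9 libraries they lay between 730.2 and 2857 CPM and between 217.5 and 3464 CPM. The 2 IDs after Lx3, Glyma.15G026400 and Glyma.15G026500, lay at 3485 and 3522 CPM in low force 109, against 589.6 to 2015 CPM and 711.0 to 4368 CPM in the other 9 libraries. These IDs were singled out after their values had been seen.

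Lx1 and Lx3 were at 0 in a library where these neighbours were abundant. In high force 044, Glyma.13G347700 had 54991 counts and Lx1 0, and Glyma.15G026400 had 33506 counts and Lx3 0. In low force 109 there were 221.8 counts of Lx1 per 10000 counts of Glyma.13G347700, against 0 to 16.4 per 10000 in the other 9 libraries. Per 10000 counts of Glyma.13G347800 there were 233.4 in low force 109, against 0 to 55.1 in the other 9, the highest in low force 092. For Lx3 and Glyma.15G026400 it was 669.8 per 10000 in low force 109, against 0 to 45.7 per 10000 in the other 9, and for Glyma.15G026500 it was 662.7 in low force 109, against 0 to 37.9 in the other 9. The sources used here do not give how reads matching several genes were counted, so trace counts of Lx1, Lx2 and Lx3 are uncertain.

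Of the 40 IDs within 5 places of one of the 5 genes, other than the genes themselves, 6 had 0 counts in all 10 libraries and 9 had enough reads for the 10-fold comparison. Of these 9, 1 met it, beside 0.843% of the 5099 genes with enough reads among all genes. That ID was Glyma.08G341000, which lies 5 IDs before KTI3. It had 1463 counts in low force 109 (147.4 CPM), against at most 1.69 CPM in any other library (high force 060, 9 counts). The RefSeq table lists another Kunitz inhibitor gene, KTI-1, directly before KTI3, and which ID it has is not given there. The ID directly before KTI3, Glyma.08G341400, had 12 counts (1.21 CPM) in low force 109. It had 74 counts (3.68 CPM) in high force 044, 42 (4.88 CPM) in low force 038 and 0 to 2 in the remaining libraries.

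**Figure D4:**
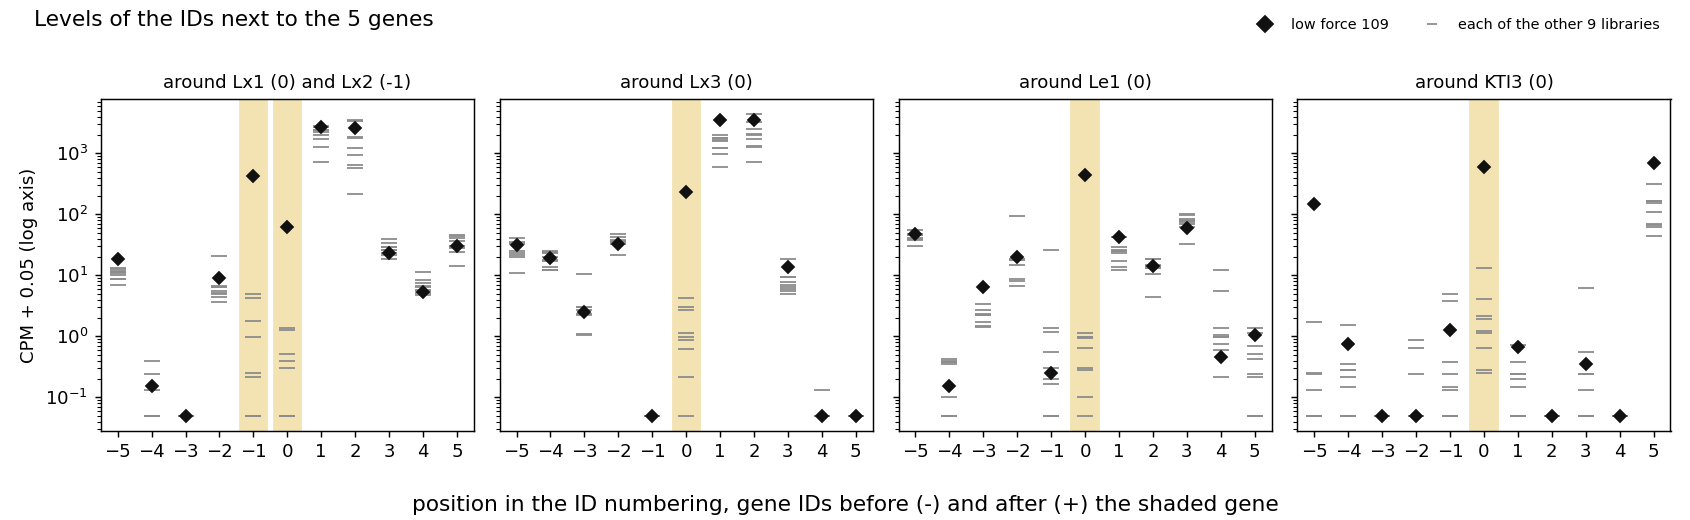
Level (CPM + 0.05, log axis) of the 5 IDs before and after each gene (shaded) in low force 109 (diamonds) and in each of the other 9 libraries (dashes). The shaded genes stand 44.6-fold or more above the next library with counts in low force 109, while the 2 IDs after Lx1 and the 2 after Lx3 are above 200 CPM in all 10 libraries.

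The comparison of the study is between high and low force, and there the 5 genes differed in mean. With TMM scaling none of them passed in the exact permutation tests, or in edgeR after adjustment. Lx1 was at 0.313 ± 0.570 CPM in high force and 12.6 ± 27.1 CPM in low force (SD, n = 5 each). Lx2 was at 1.05 ± 2.14 and 86.4 ± 189.4 CPM, and Lx3 at 0.912 ± 1.21 and 48.5 ± 103.4 CPM, in high and low force. Le1 was at 0.435 ± 0.468 and 88.1 ± 195.4 CPM, and KTI3 at 3.47 ± 5.56 and 120.2 ± 264.9 CPM. The groups overlapped for every one of the 5 genes, and each low force mean rests on low force 109.

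In two-sided exact permutation tests of 5 against 5 libraries, which cannot give a p below 0.00794, p was 0.278 for Lx1, 0.254 for Lx2, 0.0794 for Lx3, 0.206 for Le1 and 0.587 for KTI3. Without low force 109 (126 assignments), the exact permutation p lay between 0.159 (Lx3) and 0.841 (KTI3). The means were then 0.912 and 2.22 CPM for Lx3 and 3.47 and 1.79 CPM for KTI3, in high and low force. In CPM, low force 109 outweighed all other libraries together for each gene, so its group had the higher mean in every assignment. The p with all 10 libraries therefore rests on how the trace levels of the other libraries fell. It cannot respond to the level of low force 109 and is no test of it. The tests with and without low force 109 use the same trace levels, so these 10 comparisons are not independent. None passed before any adjustment.

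Of the 5 genes only KTI3 passed the filter on low counts (filterByExpr) and was tested by edgeR's quasi-likelihood test. Its log2 fold change, high over low force, was -5.22 (SE 1.96), with an edgeR p of 0.0202 before and 0.796 after adjustment. Over all genes tested, 0% of 30226 passed an adjusted p of 0.05, with 1893 at an unadjusted p under 0.05, and DESeq2 called 25. Without low force 109 the log2 fold change of KTI3 was 0.80 (SE 1.14), the opposite sign. High force 060 held 71 of its 100 high force counts. The medians of KTI3 then went the other way, 1.16 CPM in high force and 1.46 CPM in low force. With libraries scaled by their totals alone, edgeR called 62 of 30226 genes, KTI3 among them (log2 fold change -5.08, adjusted p = 7.88e-08), and the cause was not tested.

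Lx1, Lx2, Lx3 and Le1 could be fitted with all 10 libraries only with no filter, where 0% of 46734 genes passed and 3574 had an unadjusted p under 0.05. Their fitted log2 fold changes were -5.64 (SE 1.65) for Lx1, -6.61 (SE 1.95) for Lx2, -6.01 (SE 1.65) for Lx3 and -7.94 (SE 2.09) for Le1, each with an edgeR adjusted p of 0.612. The unadjusted edgeR p lay between 0.00197 (Le1) and 0.00445 (Lx2), and without low force 109 between 0.173 (Lx3) and 0.537 (Le1). High force pods had 10 counts of Lx1 and 14 of Le1 in all 5 libraries together, so these fitted values depend on few reads. Without low force 109 they were -1.02 (SE 1.27), -0.97 (SE 1.27), -1.48 (SE 1.03) and -0.66 (SE 1.05) for Lx1, Lx2, Lx3 and Le1. DESeq2 gave fold changes but no p for any of the 5.

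**Figure D5:**
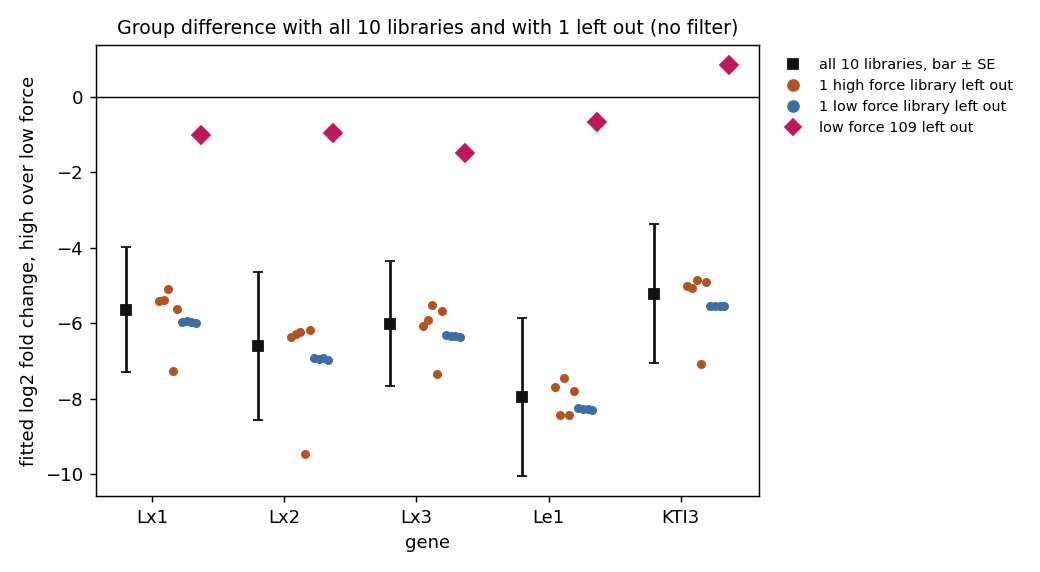
Fitted log2 fold change, high over low force, of the 5 genes with no filter on low counts, for all 10 libraries (squares, bars ± SE) and with each library left out in turn. Leaving out low force 109 (diamonds) brings Lx1, Lx2, Lx3 and Le1 to between -1.48 and -0.66 and KTI3 to 0.83.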

How the data were processed

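For 10 libraries the authors deposited read counts per gene, as unscaled whole numbers. Tools listed in the submitters' processing notes, without roles or settings, are edgeR, featureCounts, Subread 1.6.2, TopHat2 and Trim Galore 0.4.4. Gene IDs end in Wm82.a2.v1; the genome build, strand use and multi-mapping rules are otherwise not given in the sources. Groups came from the sample titles, which share no number between groups.

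Counts were TMM-normalised, and high and low force were compared with edgeR 4.0.16 (quasi-likelihood, filterByExpr, Benjamini-Hochberg over all genes tested, R 4.3.3), checked on simulated data. SE is the log2 fold change over the square root of F. Log2 CPM used a prior count of 2. Exact Poisson and Clopper-Pearson intervals are 95%. All pairs of libraries differed by more than sampling noise (chi-square per degree of freedom at least 9.97). Alternatives were other scalings, no filter, DESeq2 1.42.0 and leaving out each library. The RefSeq table (59048 genes) matched 0 IDs and was used for names only. No sequence or gene length was used.

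The 5 genes, the comparison lists and the rules were chosen with earlier results of these data known. Genes named by plan are the 5, Gy1, FAD2-1B, SWEET10b and the 2 IDs most correlated with the 5. The other globulin genes and the pod wall genes were named as comparison lists. IDs near the 5 genes were named after their values had been seen.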

Additional observations from a re-analysis of the deposited data

Results flagged for a closer look

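Within groups of 5, the log2 CPM of the 5 genes gave 10 sets of values that were searched for a library standing far apart, and 3 sets held one, low force 109 in 2 of them and high force 060 in the other. The rule would flag about 1 in 20 independent sets by chance. These sets share libraries and some repeat the value of 0 counts, so 3 of 10 cannot be set against that rate. Low force 109 was already known to be high when the genes were chosen, so its values here are a description. Lx2 in high force 060 lay at 2.36, while the other high force libraries lay between -2.05 and -1.18. Those libraries (015, 018, 044 and 071) had 1, 0, 4 and 0 counts of Lx2. The value -2.05 is that of 0 counts, so their narrow range comes in part from the floor. Lx3 in low force 109 lay at 7.87, while the other low force libraries lay between 0.22 and 2.14. Le1 in low force 109 lay at 8.77, while the other low force libraries lay between -1.08 and 0.41.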

How the results depend on the processing

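No paired analysis was possible because the groups share no soybean number. Relative log expression and upper quartile scaling kept the sign and the side of the threshold of every fold change of the 5 genes. When libraries were scaled by total alone (median log2 fold change of all genes 0.54), edgeR with the filter called 62 of 30226 genes (36 higher, 26 lower). KTI3 was among them at -5.08. With no filter, the same scaling called 135 genes higher and 226 lower, of 46734 tested. Lx1 (-5.40), Lx2 (-6.39), Lx3 (-5.78) and Le1 (-7.71) were among those. The edgeR adjusted p of the 5 genes lay between 2.03e-14 and 9.58e-07. The cause was not tested. The levels in low force 109 were then 77.9 CPM for Lx1, 542.2 for Lx2, 297.7 for Lx3, 558.1 for Le1 and 757.7 for KTI3. DESeq2 called 25 genes. Leaving out 1 library gave 0 to 1 called genes, with log2 fold changes of -7.26 to -1.02 for Lx1, -9.46 to -0.97 for Lx2, -7.33 to -1.48 for Lx3, -8.43 to -0.66 for Le1 and -7.08 to 0.80 for KTI3, the highest value each time without low force 109. KTI3 thus turned its sign (0.80). The fold over the next library then ran from 44.6 to 148.8 for KTI3, with the highest without high force 060, from 403.3 to 466.1 for Le1, 46.4 to 50.98 for Lx1, 87.1 to 101.7 for Lx2 and 55.9 to 77.7 for Lx3. The share of genes at least 10-fold above every other library was 0.483% with library size only, 1.20% at 20-fold, and 0.494% to 0.883% with 1 library left out, the lowest without low force 055 (92 of 18621 genes), whose small size after TMM sets the limit of 3 counts that genes must clear. The correlation of Glyma.10G155300 fell to 0.944 with a prior count of 0.5, and that of Gy4 to 0.944 against the lipoxygenase genes alone. Levels per coding length and promoter motifs were planned and not run, since lengths and sequences were not used here.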
